A study of Mus musculus with 7 samples.

Results

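The genes described here encode the glycosyltransferases and sulfotransferases that build and finish O-linked chains, together with relatives that share their names. They were taken by name from the count tables: every gene whose symbol starts with Galnt, B3gnt, B4galnt, B3galt, B4galt, Gcnt, Fut, St3gal, St6gal or Chst, and in addition A4gnt, C1galt1 and C1galt1c1. This gave 87 genes of 18907 features. The choice used no measured value. By what is known of them, several of these enzymes do not act on mucins. B4galnt1, St3gal5 and B4galt6 make glycolipids, Fut8 adds the core fucose of N-glycans, B3galt6, Chst3, Chst11, Chst12 and Chst15 belong to proteoglycan synthesis, and B3galtl adds glucose to thrombospondin repeats.

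Gastric epithelium of wild-type C57BL/6 mice was taken from 2 regions, the corpus and the pylorus, with no treatment, and living single cells were sorted into 384-well plates for SORT-seq, a plate-based single-cell method that counts messenger RNA molecules with unique molecular identifiers (UMIs) near the 3′ end. There were 4 plates of corpus and 3 of pylorus. The labels give neither the age of the animals nor which plates came from which animals, so that p-values measure the spread between plates, part of which may be technical. Wells with at least 1000 UMIs were kept, 2235 of 2688 (1252 of corpus, 983 of pylorus).

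The plates held 2646492 to 9511078 UMIs, and the median kept well held 6898.5 to 25544.5. The library labelled corpus replicate 1 stood apart. It held 3340 UMIs of Gast, the gastrin gene of pyloric endocrine cells, against 0 in each of the other 6 plates, so results that rest on it are given with and without it. Corpus replicate 1 and pylorus replicate 1 were also the shallowest plates. All plates number their wells 1 to 384, so shared well names are positions and not shared cells. The enzyme genes together took 110745 UMIs, 0.237% of all UMIs in kept wells. Of the 87 genes, 37 had fewer than 100 UMIs over all plates and 17 had fewer than 10.

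Mucin-type O-glycosylation starts in the Golgi when a polypeptide GalNAc-transferase (Galnt family) puts N-acetylgalactosamine on a serine or threonine. C1galt1, which needs its chaperone C1galt1c1 (Cosmc), adds galactose to make core 1. B3gnt6 makes core 3 instead, and Gcnt enzymes add the branch that makes core 2 or core 4. B3gnt and B4galt enzymes lengthen the chains, and fucosyl-, sialyl- and sulfotransferases cap them. In the stomach, surface pit cells secrete Muc5ac and mucous neck and gland cells secrete Muc6. The Muc6 chains carry a terminal α1,4-linked N-acetylglucosamine that A4gnt adds.

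The enzymes on which the results below turn most are shown first by their promoters, because A4gnt was highest in neck-like cells, St3gal5 in parietal-like cells and B4galnt2 in the parietal-like cells of corpus. RefSeq windows of 300 bases, from 250 before to 50 after the gene start (build GRCm38.p6), were at hand for 65 of the 87 genes. The windows are written 5′ to 3′ on the gene's strand, with each CG dinucleotide in capitals.
A4gnt, chr9:99612252-99612551, plus strand: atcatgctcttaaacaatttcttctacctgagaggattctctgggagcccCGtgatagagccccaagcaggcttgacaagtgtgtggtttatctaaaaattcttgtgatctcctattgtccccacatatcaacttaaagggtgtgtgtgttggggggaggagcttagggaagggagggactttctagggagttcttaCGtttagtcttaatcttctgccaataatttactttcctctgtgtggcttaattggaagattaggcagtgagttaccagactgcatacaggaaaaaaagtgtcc
B4galnt2, chr11:95914822-95915121, minus strand: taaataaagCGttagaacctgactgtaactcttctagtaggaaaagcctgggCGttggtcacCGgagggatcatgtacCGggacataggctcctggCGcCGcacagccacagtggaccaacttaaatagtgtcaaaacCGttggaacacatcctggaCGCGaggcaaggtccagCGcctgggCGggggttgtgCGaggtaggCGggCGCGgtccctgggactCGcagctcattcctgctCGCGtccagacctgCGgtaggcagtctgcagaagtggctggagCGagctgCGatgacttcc
St3gal5, chr6:72097358-72097657, plus strand: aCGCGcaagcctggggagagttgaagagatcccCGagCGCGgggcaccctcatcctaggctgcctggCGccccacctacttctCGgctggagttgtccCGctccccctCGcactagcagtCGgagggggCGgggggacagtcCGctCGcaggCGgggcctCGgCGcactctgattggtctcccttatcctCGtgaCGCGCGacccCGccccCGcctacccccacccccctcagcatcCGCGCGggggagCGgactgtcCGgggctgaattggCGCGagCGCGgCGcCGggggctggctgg
The A4gnt window held 2 CG dinucleotides at a GC content of 43.7%, and 23.3% of all 32851 windows held as few. The B4galnt2 window held 21 at 59.0% GC, and 24.8% of windows held as many. The St3gal5 window held 33 at 72.7% GC, and 8.56% of windows held as many. The median was 18 over the 85 windows of the enzyme genes and 7 over all windows. The letters AGATAA, searched on both strands, stood in the A4gnt window and in 8 of the 85 windows of the enzyme genes, against 11.2% of all windows. The letters AAGGTCA stood in 1 of the 85 windows, that of Galntl5, against 4.72% of all.

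Cells were clustered with all 87 genes left out, so that the levels of these genes played no part in the classes, and clusters were named from markers of other genes. This gave 606 pit-like, 591 neck-like, 284 chief-like, 147 parietal-like, 139 proliferating-like, 108 immune-like and 50 tuft-like wells. The immune-like wells were led by the mast cell genes Cma1, Cpa3 and Mcpt1. A cluster of 237 wells with 9 detected endocrine markers, among them Chga, Ghrl and Hdc, was led by Cel, Gc, Pappa2 and Ptf1a and is called the unnamed cluster. A further 45 endocrine-like wells, led by Sst, reached 10 wells in corpus replicate 1 alone and were not compared. UMIs were summed per plate and class where a plate held at least 10 wells, and are given as CPM (each gene's UMIs scaled to a common library total) after TMM scaling, a correction for composition. A class was compared with the unweighted mean of the other 7, with the plate as a block, by limma with Benjamini-Hochberg adjustment over 11514 genes. Different clusters held the same class on different plates: most neck-like wells of corpus replicates 1 and 2 and pylorus replicate 1 came from clusters 0 and 1, and those of the other 4 plates from clusters 12 and 13. The chief-like wells of corpus replicate 2 and pylorus replicate 1 came from cluster 9. Most of those of corpus replicates 3 and 4 came from cluster 16, and of pylorus replicates 2 and 3 from cluster 10.

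Of the 87 genes, 59 passed the filter on low counts and 28 did not. St6galnac1, which sialylates the first GalNAc, had 1 UMI over all plates, and Fut1, an H-antigen fucosyltransferase, had 6. Gcnt4, a further branching enzyme, had 81 UMIs and B4galnt3, which adds GalNAc to GlcNAc ends, had 170. The others not tested were B3galt1, B3galt2, B3gnt5, B3gnt9, B4galnt4, B4galt7, Chst2, Chst5, Chst7, Chst9, Chst10, Chst13, Chst14, Fut7, Fut10, Galnt14, Galnt15, Galnt16, Galnt18, Galntl5, Gcnt7, St6gal2, St6galnac3 and St6galnac5. Summed over all 87 genes and without TMM scaling, neck-like cells had the highest mean level, 3568 ± 472 CPM (SD, n = 7 plates). Pit-like cells had 2746 ± 194 (n = 7), proliferating-like cells 2590 ± 357 (n = 6) and tuft-like cells 2401 ± 24.3 (n = 2). The unnamed cluster had 1823 ± 243 (n = 7) and immune-like cells 1794 ± 313 (n = 4). Chief-like cells had 1246 ± 261 (n = 6) and parietal-like cells 1283 ± 46.0 (n = 4), which lie within each other's spread. The TMM factors were at most 0.633 in chief-like and 0.879 in parietal-like sums, so scaling would raise these totals.

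In neck-like cells 21 of the 59 tested genes were higher and 6 lower, where 14.3% of all genes tested were higher and 7.23% lower. In pit-like cells 20 were higher and 10 lower (21.5% of all genes higher, 11.9% lower). Both lists share 15 genes, 15 of the 21 and 15 of the 20. In proliferating-like cells 13 were higher and 11 lower (19.3% of all genes higher, 16.4% lower), shares close to those of all genes. Parietal-like cells had 6 higher and 20 lower (14.8% of all genes higher, 13.9% lower). Chief-like cells had 9 higher and 11 lower (14.6% of all genes higher, 9.81% lower), but without TMM scaling, which shifts the chief-like values of all genes by a median of -0.59 on the log2 scale, 1 was higher and 23 lower. Immune-like cells had 14 higher and 24 lower (14.7% of all genes higher, 40.2% lower), or 17 and 19 without TMM scaling (median shift 0.29). Tuft-like cells had 9 higher and 9 lower (8.16% of all genes higher, 12% lower), or 10 and 4 without it (median shift 0.31). The unnamed cluster had 19 higher and 27 lower (20.1% of all genes higher, 33.8% lower), or 20 and 22 without it (median shift 0.40). Without that scaling proliferating-like cells had 16 higher and 9 lower (median shift 0.13). Each class is part of the mean the others are set against, so these counts are not independent of each other. Some genes passed the filter on low counts only through the class in which they were high, so that they had to differ: Chst3 and B4galnt2 (parietal-like), B3galt5 and Chst15 (immune-like), B3gnt6 and Chst8 (tuft-like), B3gnt7 (pit-like), Galnt5 (neck-like), and B4galt2, Chst12, Galnt13, St6galnac4 and St6galnac6 (unnamed cluster). The counts are therefore a description, and no test is given for these genes. The 5 tested genes that were higher in no class were B3galt6, B3gntl1, B4galt3, C1galt1c1 and Fut11.

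**Figure D1:**
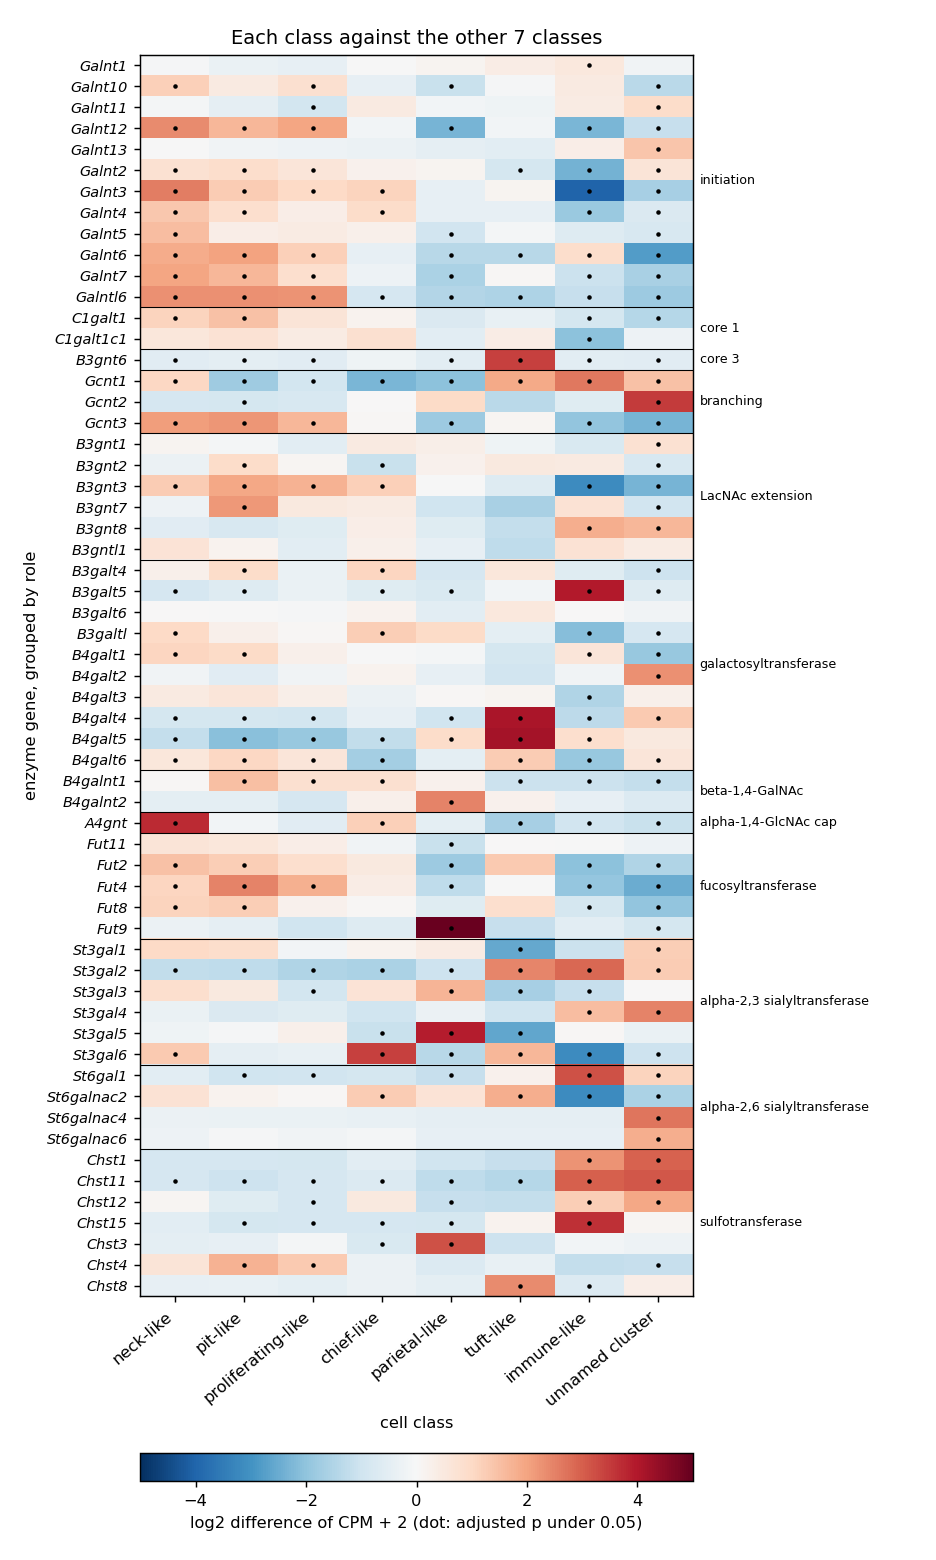
Log2 difference of CPM + 2 between each class (columns) and the mean of the other 7, for the 59 tested enzyme genes (rows, grouped by role), red for higher and blue for lower, with a dot where the adjusted p was under 0.05 (dots of genes that passed the filter through 1 class carry no weight). The neck-like and pit-like columns are both red for 7 of the initiating enzymes and for Gcnt3, and A4gnt, Fut9, St3gal6 and B4galt5 each stand out in 1 class.

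Among the 12 tested Galnt enzymes, 9 were higher in neck-like cells, 7 in pit-like and 7 in proliferating-like cells. Of all genes tested, 14.3%, 21.5% and 19.3% were higher in these classes. None of the 12 was lower in neck-like or pit-like cells (7.23% and 11.9% of all genes). In parietal-like cells none was higher and 6 were lower (14.8% and 13.9% of all genes). Because Galnt5 and Galnt13 passed the filter on low counts through 1 class each, these counts are a description. Galnt3, an initiating transferase, ranged over the 7 plates from 71.5 through a median of 111 to 207 CPM in neck-like cells. It was 2.57 ± 0.25 (SE) higher on the log2 scale than the mean of the other classes (adjusted p = 5.67e-10), and 6 of 7 plates lay above every sum of another class. Galnt12 ranged from 110 through 120 to 138 CPM in neck-like cells, a narrow spread, and was higher by 2.38 ± 0.30 (adjusted p = 9.86e-08). Proliferating-like cells had 99.5 CPM of Galnt12, and 3 of 7 neck-like plates lay above every sum of another class.

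Galnt7, which prefers substrates that already carry GalNAc, ranged from 247 through 326 to 449 CPM in neck-like cells and was 1.98 ± 0.15 higher there (adjusted p = 9.43e-13). Pit-like cells came next with a mean of 287 CPM. Galnt4, counted at a locus that overlaps Poc1b so that the counts may be shared, ranged from 248 through 270.5 to 337 CPM and was 1.35 ± 0.14 higher in neck-like cells (adjusted p = 1.18e-09). Galnt6 was at its highest in pit-like cells, from 95.4 through 153 to 178 CPM, higher by 2.02 ± 0.26 (adjusted p = 5.20e-08), and was also higher in neck-like cells by 1.86 ± 0.26. Over the plates, Galnt6 overlapped between these mucous classes, and the difference between them was not tested. In immune-like cells Galnt3 was at 0 CPM in all 4 plates.

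C1galt1, the core 1 synthase, ranged from 57.6 through 91.8 to 125 CPM in pit-like cells and was 1.45 ± 0.26 higher there (adjusted p = 2.48e-05), and it was 1.11 ± 0.26 higher in neck-like cells. Its chaperone C1galt1c1 was higher in no class. Mean levels of C1galt1c1 ran from 77.0 CPM in chief-like through 67.6 in pit-like and 59.7 in neck-like to 32.2 in parietal-like cells, and in immune-like cells (12.4 CPM) it was lower, by 2.05 on the log2 scale. Core 3 synthase B3gnt6 had 31 UMIs in all, of which 26 fell in tuft-like wells. Its levels were 10.2 and 39.4 CPM in the tuft-like wells of corpus replicate 4 and pylorus replicate 3.

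The branching enzymes differed in the classes they marked. Gcnt3, the mucin-type branching enzyme that makes core 2 and core 4, ranged from 388 through 526 to 666 CPM in pit-like cells and was 2.22 ± 0.18 higher than in the other classes (adjusted p = 1.42e-12). In neck-like cells it had 494 ± 84.1 CPM (SD, n = 7) and was 2.08 ± 0.18 higher, and proliferating-like cells had 435 ± 124 CPM (n = 6). These 3 classes overlapped. Gcnt1, the leukocyte-type core 2 enzyme, was highest in immune-like cells, where the corpus sums (replicates 3 and 4) held 77.13 and 94.03 CPM and the pylorus sums (replicates 2 and 3) 117.7 and 107 CPM. It was 2.64 ± 0.36 higher there (adjusted p = 7.58e-08) and 1.04 ± 0.29 higher in neck-like cells, which had a median of 34.1 CPM. The unnamed cluster overlapped with immune-like cells, from 20.2 through 58.3 to 95.2 CPM of Gcnt1, and the tuft-like sums held 61.3 and 73.2 CPM. Gcnt2, which makes the branched I antigen, ranged from 17.2 through 33.2 to 42.4 CPM in the unnamed cluster and was 3.49 ± 0.33 higher there (adjusted p = 1.80e-11).

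Of the extending enzymes, B3gnt3, which lengthens core 1, ranged from 57.2 through 62.6 to 71.3 CPM in pit-like cells and was 1.94 ± 0.25 higher (adjusted p = 4.29e-08). Proliferating-like cells overlapped, with 37.9 through 58.7 to 66.8 CPM. B4galt1, a main galactosyltransferase of N-acetyllactosamine, ranged from 84.3 through 228 to 244 CPM in neck-like cells and was 1.06 ± 0.20 higher (adjusted p = 9.45e-05). Its levels in pit-like cells overlapped, from 94.5 through 164 to 257 CPM. B3gnt7, an extending enzyme of keratan sulfate chains, had 15.7 ± 6.82 CPM in pit-like cells (SD, n = 7). Outside mucin synthesis, B4galnt1, the GM2 and GD2 ganglioside synthase, ranged from 232 through 336 to 406 CPM in pit-like cells and was 1.50 ± 0.17 higher (adjusted p = 3.04e-09). Chief-like cells had 62.2 through 307 to 494 CPM of B4galnt1 and proliferating-like cells a median of 290 CPM, so these classes overlapped.

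A4gnt, the capping enzyme, had the largest log2 difference of the 59 genes in neck-like cells. It had 695.6, 691.7, 567.2 and 577.4 CPM in neck-like cells of the 4 corpus plates and 445.5, 309.3 and 253.9 CPM in those of the 3 pylorus plates. All 7 lay above every sum of another class, the highest of which was 148.2 CPM. The difference was 3.74 ± 0.23 on the log2 scale (adjusted p = 1.80e-15). Chief-like cells followed with 97.7 ± 38.6 CPM (SD, n = 6), and were 1.20 ± 0.24 higher than the mean of the other classes, a call that did not hold without TMM scaling. UMIs of A4gnt were found in 84.4% of neck-like wells (median 16769 UMIs a well) and in 13.9% of immune-like wells (median 3718), cells not known to make it. After each well was thinned to 3000 UMIs, which left 519 neck-like and 69 immune-like wells deep enough, the shares were 65.9% in neck-like, 18.8% in chief-like, 13.6% in pit-like, 10.2% in parietal-like and 8.70% in immune-like wells.

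Against Muc6, its main carrier, A4gnt stood at 88.9 UMIs per 100 in neck-like cells (4743 against 5338). In the other 7 classes the pooled ratio was higher. It was 304 per 100 in pit-like cells (618 against 203), 328 in chief-like (463 against 141) and 293 in parietal-like cells (158 against 54). It was 159 in proliferating-like cells, 212 in the unnamed cluster, and 200 in immune-like and in tuft-like cells (18 against 9 in each). In corpus replicate 1 alone it was 67.1 in neck-like, 116 in pit-like and 87.5 in chief-like cells, the last from 7 against 8 UMIs. Muc6 was among the markers that named neck-like clusters, while A4gnt was left out, so the ratios are not free of how the classes were made. They carry no test.

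**Figure D2:**
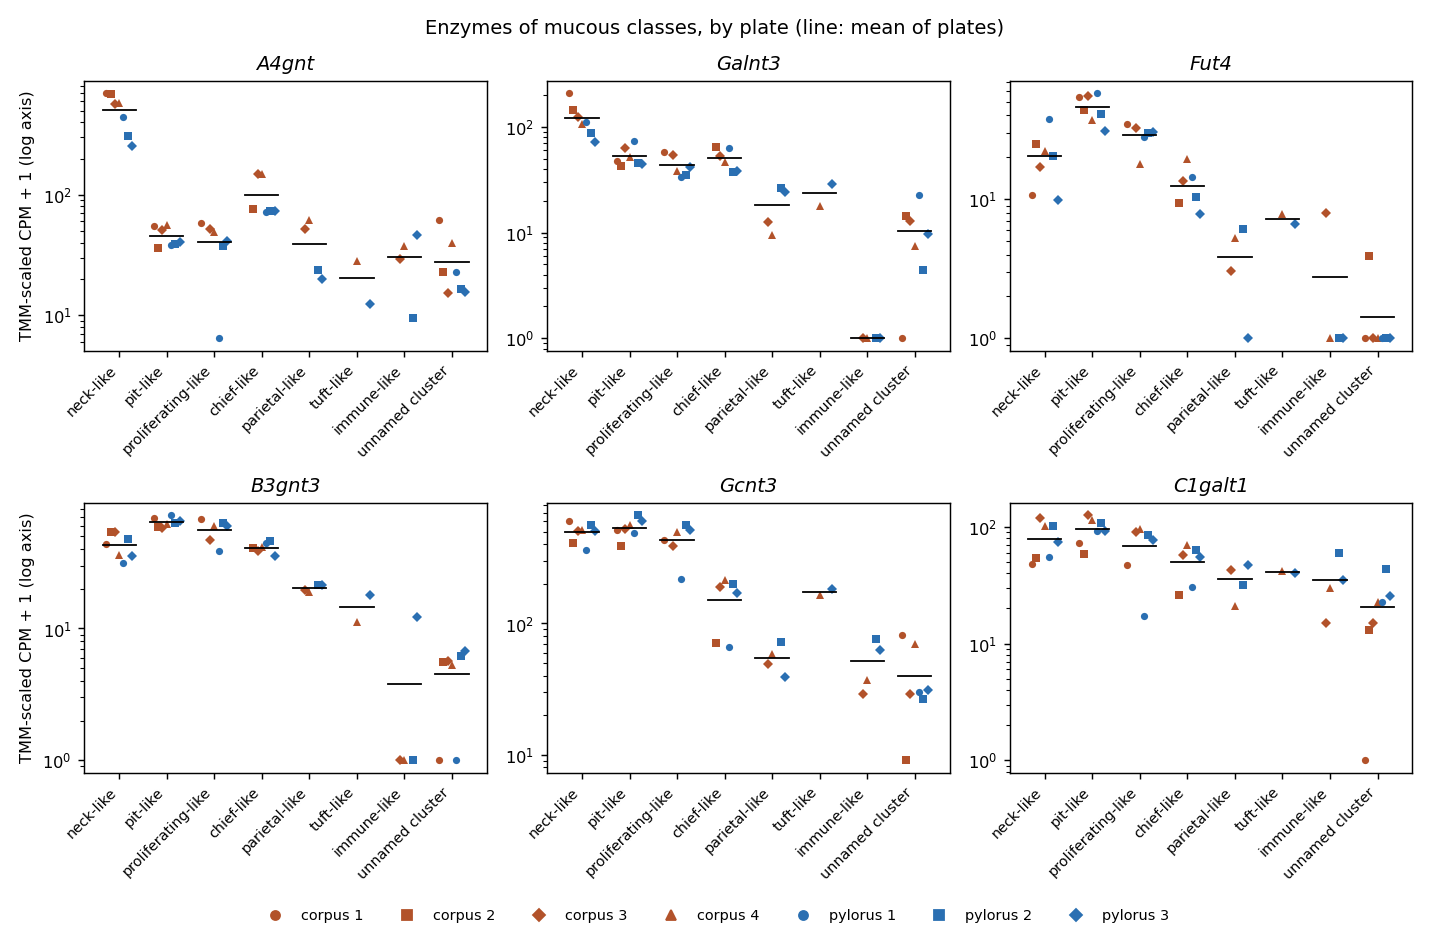
Levels (TMM-scaled CPM + 1 on a log axis) of 6 enzyme genes that marked neck-like or pit-like cells, with 1 point per plate and class and a line at the mean of the plates. A4gnt in neck-like cells runs from 253.9 to 695.6 CPM, above all other points, while Gcnt3 overlaps between neck-like, pit-like and proliferating-like cells.

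The fucosyltransferases divided by class. Fut4, which makes Lewis x type structures, ranged from 30.0 through 42.6 to 56.7 CPM in pit-like cells and was 2.47 ± 0.25 higher (adjusted p = 3.65e-10). Fut2, the secretor enzyme that makes the H antigen, had 103 ± 22.3 CPM in neck-like cells (SD, n = 7) and was higher there by 1.47 ± 0.32 and in pit-like cells by 1.24 ± 0.32. In tuft-like cells it had 139 ± 46.8 CPM over 2 plates, and the difference of 1.32 ± 0.57 did not pass (adjusted p = 0.102). Fut9, which also makes Lewis x, reached 282.4 and 202.4 CPM in the parietal-like sums of corpus (replicates 3 and 4) and 145.2 and 53.15 CPM in those of pylorus (replicates 2 and 3). No other class had a mean above 7.38 CPM, and all 4 parietal-like sums lay above every sum of another class. The difference was 4.93 ± 0.48 (adjusted p = 1.03e-10). UMIs of Fut9 were found in 61.2% of parietal-like wells.

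Chst4, the mucin sulfotransferase, was higher in pit-like cells (15.8 ± 13.0 CPM, SD, n = 7) by 1.75 ± 0.42 and in proliferating-like cells (18.3 ± 18.3 CPM, n = 6) by 1.29 ± 0.45. Its spread over the plates was as wide as its level, and it is taken up again with the regions. Its highest sum was 89.0 CPM, in the neck-like cells of corpus replicate 1, against at most 15.8 CPM in those of any other plate. Without corpus replicate 1 the differences were 1.81 ± 0.39 in pit-like and 1.23 ± 0.42 in proliferating-like cells, and both passed, while neck-like cells had 3.82 ± 5.96 CPM (n = 6).

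Parietal-like cells also had St3gal5, the GM3 ganglioside synthase, at 171 and 165.3 CPM in the same corpus sums and at 188.5 and 134.9 CPM in the same pylorus sums. These levels lay close together and well above the other classes, of which the highest mean was 16.1 CPM. The difference was 3.92 ± 0.41 (adjusted p = 5.35e-10). B4galnt2, which makes the Sda antigen, split by region within parietal-like cells, with 114.9 and 99.61 CPM in the corpus plates and 0 and 1.363 CPM in the pylorus plates. The highest mean of another class was 3.53 CPM. Chst3, a chondroitin 6-O-sulfotransferase, had 24.4 ± 12.7 CPM (SD, n = 4) in parietal-like cells. Among the 20 genes lower in parietal-like cells were the mucin enzymes Galnt12 (-2.32), Gcnt1 (-2.06), Gcnt3 (-1.81), Fut2 (-1.80) and Galnt7 (-1.57), all on the log2 scale.

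In chief-like cells St3gal6, which sialylates type 2 chains, ranged from 110 through 148 to 227 CPM. All 6 plates lay above every other sum, the highest being 78.8 CPM, and the difference was 3.43 ± 0.35 (adjusted p = 2.74e-10). St3gal6 was the 1 gene that stayed higher in chief-like cells without TMM scaling. It was found in 72.9% of chief-like, 52.0% of tuft-like and 36.5% of neck-like wells. St3gal4, a relative with the same kind of acceptor, ranged from 0 through 36.1 to 45.4 CPM in the unnamed cluster and was 2.48 ± 0.40 higher there (adjusted p = 1.92e-06).

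Tuft-like cells, compared in 2 plates, had B4galt5, a lactosylceramide synthase, at 156.6 CPM in corpus replicate 4 and 135.1 CPM in pylorus replicate 3, against a highest other mean of 18.2 CPM (4.17 ± 0.48, adjusted p = 9.44e-09). B4galt4 was at 51.08 and 56.3 CPM against at most 9.03 CPM (4.07 ± 0.49, adjusted p = 2.43e-08). Both galactosyltransferases lay above every other class in both plates. St6galnac2, a sialyltransferase of the core GalNAc, was at 126 and 166.1 CPM (1.81 ± 0.50, adjusted p = 0.00723), but this call was lost when either plate was left out, which leaves 1 tuft-like sum (adjusted p = 0.0626 without corpus replicate 4, 0.239 without pylorus replicate 3). B4galt6, a relative of B4galt5, was at 78.32 and 92.89 CPM (1.27 ± 0.32, adjusted p = 0.00356), and its call was lost in the same way. Its levels overlapped with those of pit-like cells, from 59.8 through 79.8 to 122 CPM. They also overlapped with neck-like cells (45.1 through 53.2 to 120 CPM) and proliferating-like cells (41.8 through 66.2 to 113 CPM).

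Immune-like cells, which rest on 4 plates and shallow wells, had B3galt5, the type 1 chain galactosyltransferase, at 21.04 and 72.33 CPM in the corpus plates (replicates 3 and 4) and at 16.82 and 45.05 CPM in the pylorus plates (replicates 2 and 3). The mean of the other classes was 0.541 CPM, and 23 of the 34 UMIs of B3galt5 fell in immune-like wells. Chst15, which sulfates chondroitin sulfate of the kind found in mast cells, was at 21.04, 14.47, 33.64 and 67.57 CPM, with 21 of its 40 UMIs in immune-like wells. St3gal2 was at 14.02, 36.17, 75.69 and 39.42 CPM (2.88 ± 0.39, adjusted p = 8.19e-08). The spread of St3gal2 over the plates was wide beside its level. Galnt1, an initiating enzyme, passed narrowly (0.52 ± 0.22, adjusted p = 0.0485), and did not pass without corpus replicate 4 (adjusted p = 0.133), pylorus replicate 2 (0.0803) or pylorus replicate 3 (0.276).

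**Figure D3:**
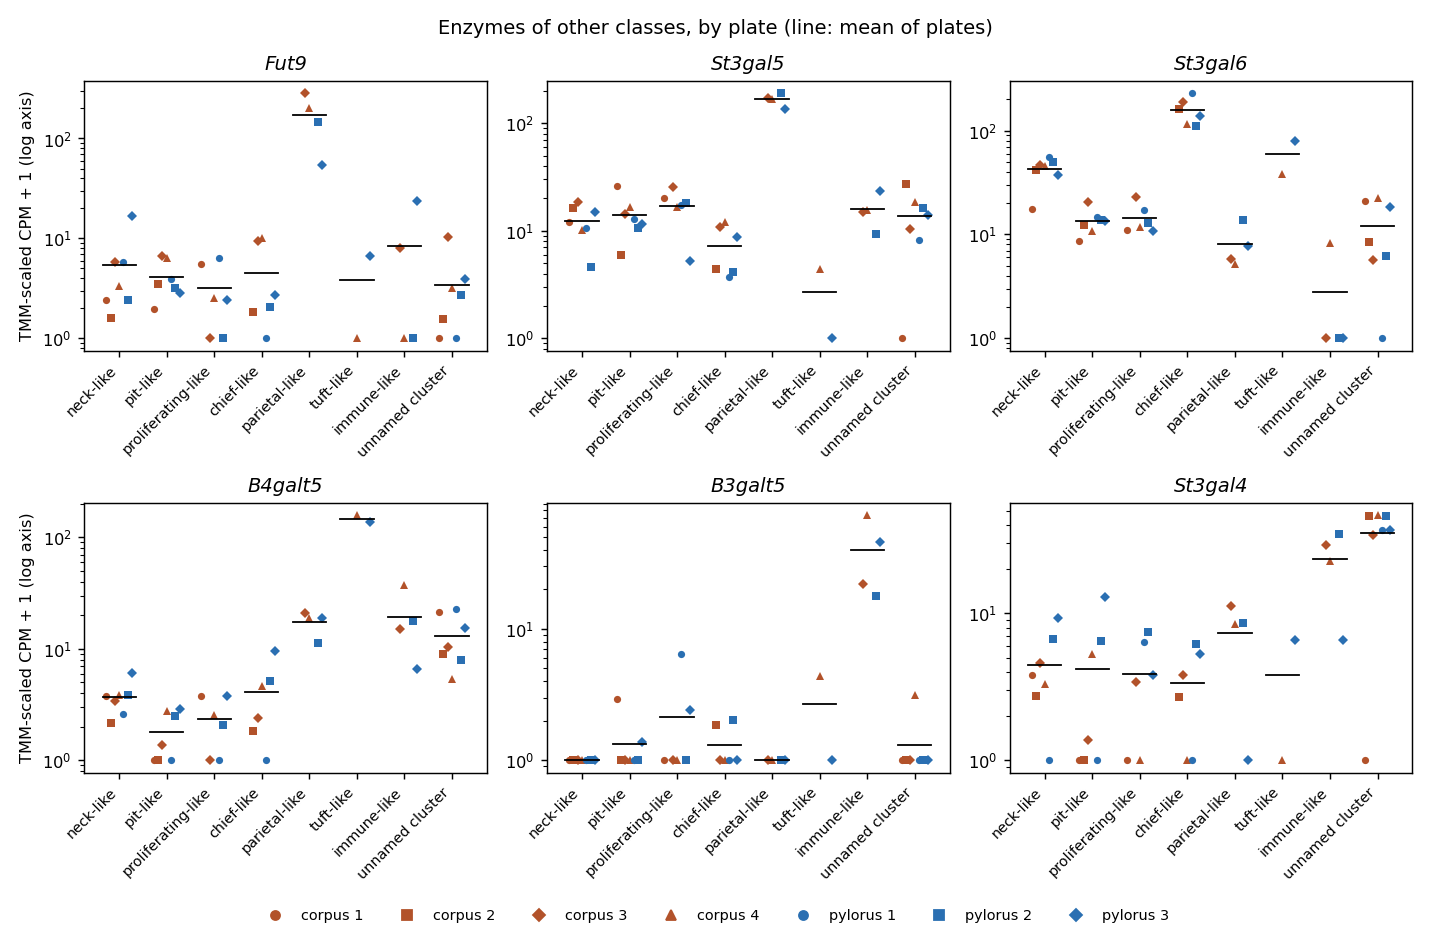
Levels (TMM-scaled CPM + 1 on a log axis) of 6 enzyme genes that were highest in chief-like, parietal-like, tuft-like, immune-like or unnamed cells, with 1 point per plate and class and a line at the mean of the plates. B3galt5, which passed the filter on low counts through immune-like cells alone, had to be high there and is shown as a description. Fut9 and St3gal5 lie above all other points in the 4 parietal-like sums, and St3gal6 in the 6 chief-like sums.

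The supply of sugar donors was looked at beside the enzymes. These genes were used in the clustering, so their values are a description. Of 26 tested donor genes, 18 were higher and 0 lower in neck-like cells (14.3% and 7.23% of all genes), and 12 and 0 in pit-like cells (21.5% and 11.9%). In parietal-like cells 1 was higher and 4 lower (14.8% and 13.9%), and in immune-like cells 0 and 19 (14.7% and 40.2%). Gfpt1, the entry enzyme of the hexosamine pathway, had 863 ± 176 CPM in neck-like cells, and Papss2, which makes the sulfate donor, had 368 ± 62.2 CPM in pit-like cells. The dissociation stress list of 13 genes also differed between classes, with 10 higher in neck-like, 11 higher in immune-like, 8 lower in parietal-like and 11 lower in tuft-like cells, and its part in the enzyme levels was not tested.

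The corpus was compared with the pylorus over all kept cells of a plate, then within classes. In sums over all cells, fewer cells of a type and less RNA per cell cannot be told apart. The CPM of the region comparisons carry their own TMM scaling and differ somewhat from those of the class comparison. No enzyme gene passed over all cells (limma called 0 of 56, voom weights called 0, and 1 had an unadjusted p under 0.05), where 0.0167% of all genes passed. A4gnt was at 196.3, 206.6, 158.7 and 166.8 CPM in the corpus plates and at 135, 83.22 and 73.41 CPM in the pylorus plates. The regions did not overlap, as for 3.05% of all genes, at 182 ± 23.0 (SD, n = 4) against 97.2 ± 33.1 (SD, n = 3). The difference of -0.93 ± 0.23 on the log2 scale (pylorus minus corpus) had an adjusted p of 0.9999 by limma.

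Chst4, which sulfates N-acetylglucosamine on mucins, was at 41.78 CPM in corpus replicate 1 and at 1.689, 0.6121 and 1.716 CPM in the other corpus plates, and at 7.347, 15.97 and 12.98 CPM in pylorus. The regions overlapped through corpus replicate 1 alone. Over all plates the difference was 1.11 ± 0.89 (adjusted p = 0.9999). Without corpus replicate 1, the plate that held Gast, it was 2.03 (adjusted p = 0.289). The part of that plate's other differences in this level was not tested. In pit-like cells the level of Chst4 was 8.92 ± 12.5 CPM (corpus) against 21.8 ± 6.47 CPM (pylorus) (1.69 ± 0.64, adjusted p = 0.9998).

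The other mucin enzymes fixed for naming did not pass over all cells. Gcnt3 had 333 ± 113 CPM in corpus and 363 ± 58.6 in pylorus, a difference of 0.19 on the log2 scale. C1galt1 had 60.7 ± 25.2 and 66.1 ± 11.1 CPM, and C1galt1c1 had 54.6 ± 8.61 and 62.6 ± 17.1 CPM. Fut2 had 66.1 ± 6.56 and 76.5 ± 13.9 CPM, and Gcnt1 had 19.8 ± 6.02 and 19.4 ± 6.20 CPM. St3gal1 had 13.2 ± 8.96 and 14.4 ± 7.49 CPM. For these genes the 2 means differed by less than the larger SD. The low genes B4galnt3, at 2.54 ± 1.25 and 4.46 ± 1.52 CPM, and Gcnt4, at 2.19 ± 0.794 and 1.40 ± 0.437 CPM, had overlapping plates.

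Within neck-like cells no enzyme gene passed either (limma called 0 of 36, voom weights called 0, and 4 had an unadjusted p under 0.05), where 0.0334% of all genes passed. A4gnt was at 719.4, 711.2, 578.8 and 583.7 CPM in corpus and at 452.8, 319.9 and 262.6 CPM in pylorus, without overlap (4.71% of all genes). The difference of -0.93 ± 0.21 had an adjusted p of 0.527 by limma, and of 0.563 without corpus replicate 1 (-0.89). Muc6, its carrier, was also lower in the pylorus plates: 1206, 735, 641 and 652 CPM (without TMM scaling) in neck-like cells of the corpus plates and 620, 246 and 222 CPM in those of the pylorus plates. A4gnt per 100 UMIs of Muc6 was 67.1, 99.7, 80.1 and 84.7 in corpus and 77.1, 126 and 118 in pylorus, so that the ranges of the ratio overlapped. Fut8 was at 120 ± 15.3 CPM in corpus and 86.8 ± 10.3 in pylorus (-0.45 ± 0.18), and Galnt12 at 117 ± 4.80 and 136 ± 7.18 (0.22 ± 0.16), both with an adjusted p of 0.9999 by limma.

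In pit-like cells 0 of 39 genes passed (by limma, while voom weights also called 0, and 1 had an unadjusted p under 0.05), where 0.0105% of all genes passed. Galnt2, an initiating enzyme, did not overlap (4.34% of all genes), at 140 ± 19.5 CPM in corpus and 163 ± 6.97 in pylorus, but the difference of 0.23 ± 0.16 had an adjusted p of 0.9998 by limma. No enzyme gene passed in chief-like (0 of 25, background 0%), proliferating-like (0 of 25, background 0%) or unnamed cells (0 of 26, background 0%), or in immune-like cells (0 of 5, background 0.181%). Voom weights called none there either. A4gnt in chief-like cells was at 45.93, 90.75 and 89.89 CPM in corpus replicates 2 to 4 and at 43.48, 45.57 and 44.15 CPM in pylorus. The regions did not overlap (7.99% of all genes), though corpus replicate 2 lay beside the pylorus plates, and the difference was -0.68 ± 0.28 (adjusted p = 0.999 by limma).

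**Figure D4:**
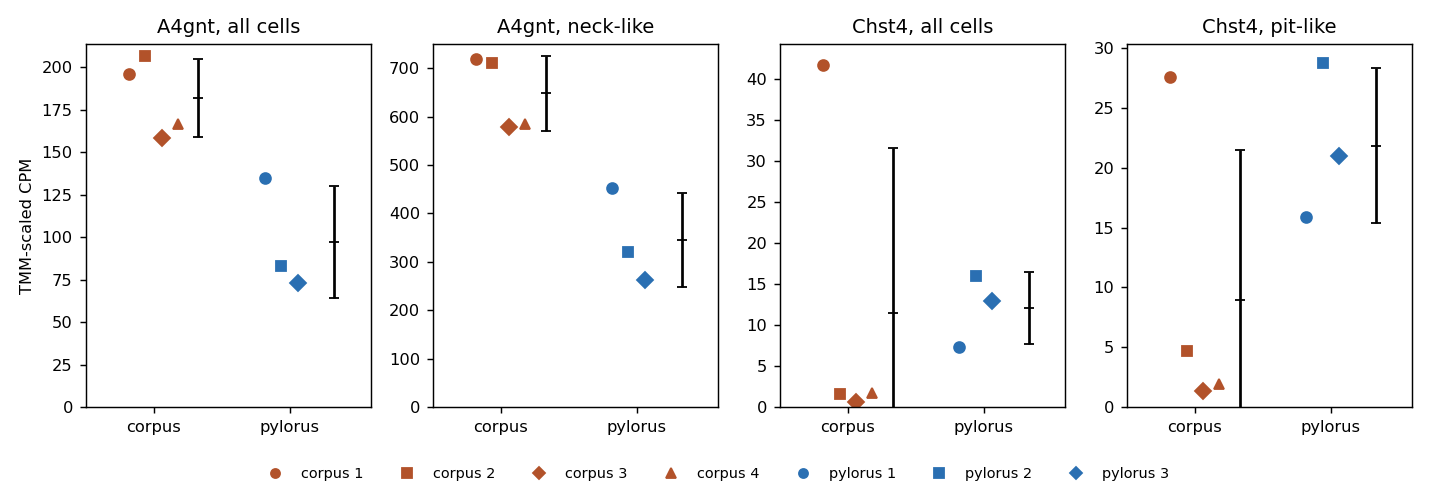
Levels (TMM-scaled CPM) of A4gnt and Chst4 in corpus and pylorus, 1 point per plate with the mean and SD as a bar, over all cells or within the class given in each panel. A4gnt does not overlap between regions over all cells or in neck-like cells, and corpus replicate 1 lies apart for Chst4, where the SD bars of corpus are drawn only down to 0.

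A subset of 4 plates (corpus replicates 3 and 4, pylorus replicates 2 and 3) was also compared alone by limma. These plates were taken as similar to each other, with earlier results of these data known. The spread between plates picked as similar may be too small, so the p-values of this subset are a description. In these 4 plates 5 of 57 enzyme genes passed over all cells, where 3.53% of all genes did. A4gnt fell from 151 ± 5.70 to 73.4 ± 7.33 CPM from corpus to pylorus (adjusted p = 1.63e-04), and Chst4 rose from 1.08 to 13.6 CPM (adjusted p = 3.67e-05). Fut9, St3gal5 and B4galnt2 were lower in pylorus, at 8.14 against 37.8 CPM, 17.1 against 33.2 CPM and 0.267 against 16.8 CPM. These 3 were high in parietal-like cells, which made up 56 and 42 wells of these corpus plates and 13 and 21 of the pylorus plates, and chief-like cells made up 36 and 25 against 58 and 63, so that for sums over all cells the make-up of the plates and the level per cell cannot be told apart. In neck-like cells A4gnt alone of 35 genes passed (1.84% of all genes), at 555 ± 5.13 and 275 ± 33.8 CPM (-1.01 ± 0.13, adjusted p = 3.49e-09). Cluster 12, led by Muc6, held 29 and 27 neck-like wells of these corpus plates and 6 and 6 of these pylorus plates. Cluster 13, led by Bpifb1, held 58 and 56 against 76 and 72. The part of this make-up in the A4gnt difference was not tested. In chief-like cells A4gnt alone of 27 passed (0.701% of all genes), at 90.8 and 45.1 CPM (-0.98 ± 0.19, adjusted p = 0.00529). Most chief-like wells of these corpus plates were of cluster 16 (34 and 23 wells), which held 0 wells of pylorus. Most of those of these pylorus plates were of cluster 10 (57 and 63 wells), so that cluster and region cannot be told apart here. In pit-like cells 4 of 40 passed (3.16% of all genes): Chst4 at 1.56 and 23.1 CPM, B4galt1 at 147 and 210, Galnt4 at 143 and 189, and St3gal4 at 1.98 and 7.46 CPM, all higher in pylorus.

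Parietal-like cells were compared in the same 4 plates, 2 a region, since no other plate held 10 of their wells. Here 6 of 30 enzyme genes passed, where 7.91% of all genes passed. B4galnt2 and Gcnt2 passed the filter on low counts through the corpus plates alone, so the count of 6 is a description. With 2 plates a region, the residual spread has 2 degrees of freedom and the fit adds 13.2 from the other genes. B4galnt2 was at 83.7 and 76.74 CPM in corpus and at 0 and 1.013 CPM in pylorus. The regions lay far apart, with 262 UMIs in corpus and 1 in pylorus. The ratio of the summed levels, 71.8 and 0.760 CPM before TMM scaling, was 94.5, and its size rests on 1 UMI in pylorus. As B4galnt2 passed the filter through corpus alone, the ratio is a description and no interval or test is given for it.

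Fut9 was at 205.8 and 155.9 CPM in corpus and at 109.2 and 39.53 CPM in pylorus (-1.41 ± 0.32, adjusted p = 0.0148). The regions did not overlap, but with 2 plates each that held for 52.6% of all genes. The size of the Fut9 difference rested on single plates: it was -0.70 without pylorus replicate 3 and -2.12 without pylorus replicate 2, and passed in each case, where the lone plate of a region is assumed to vary like the others. St3gal1, a sialyltransferase of core 1, was at 38.36 and 40 CPM in corpus and at 0 and 11.15 CPM in pylorus (-3.01 ± 0.62, adjusted p = 0.00876). The ratio of its summed levels, corpus over pylorus, was 4.13 (exact 95% interval 2.23 to 8.49), a smaller difference than the fitted one, in which the plate at 0 weighs as much as the other. It lost its call without corpus replicate 4 (adjusted p = 0.0730). Gcnt2 had 37 and 25 UMIs in corpus and 0 in both pylorus plates, at least 7.46-fold lower against a floor of 3 counts over the group.

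The remaining calls were smaller in size. Galnt2 was at 71.24 and 57.15 CPM in corpus and at 120.7 and 98.31 CPM in pylorus, the one of the 6 that was higher in pylorus (0.75 ± 0.20, adjusted p = 0.0330). A4gnt was at 36.87 and 46.53 CPM in corpus and at 17.24 and 14.19 CPM in pylorus (-1.30 ± 0.29, adjusted p = 0.0145). Over all plates and without TMM scaling, A4gnt stood at 31.4 CPM in parietal-like cells, 39.7 in pit-like cells and 37.2 in immune-like cells, which are not known to make it. The part of free RNA in these levels was not tested. The calls of A4gnt and Galnt2 were lost without corpus replicate 3 or corpus replicate 4, each of which leaves 1 corpus plate. With each plate left out in turn, the difference ran from -1.46 to -1.14 for A4gnt and from 0.60 to 0.91 for Galnt2. Gcnt2 passed the filter on low counts through corpus alone, so no test is given for it. Without TMM scaling, which shifts all genes of this comparison by a median of 0.33, 3 genes were higher and 5 lower in pylorus, against 1 and 5 with it. Galnt4, at 50.32 and 66.13 CPM in corpus and 101.5 and 83.11 CPM in pylorus, missed the threshold with TMM scaling (0.65 ± 0.21, adjusted p = 0.0739) and passed without it (adjusted p = 0.00426).

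Beside these differences, the dissociation stress list stood at 746 and 904 CPM in parietal-like cells of corpus and 963 and 1207 CPM in those of pylorus (without TMM scaling), and its part in them was not tested. The summed neck markers other than A4gnt stood at 651 and 811 CPM against 726 and 775 CPM, overlapping. Among these markers, Muc6 alone stood at 13.4 and 9.23 CPM in corpus (30 and 13 UMIs). In pylorus Muc6 stood at 6.24 and 3.59 CPM (3 UMIs in each plate), so that it was lower without overlap, as A4gnt was. The part of neck-cell RNA in the A4gnt difference was not tested. The parietal gene Atp4b stood at 10321 and 9379 against 9822 and 9583 CPM. Median depth was 39338.5 and 34143 UMIs a well in corpus and 34927 and 40068 in pylorus.

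**Figure D5:**
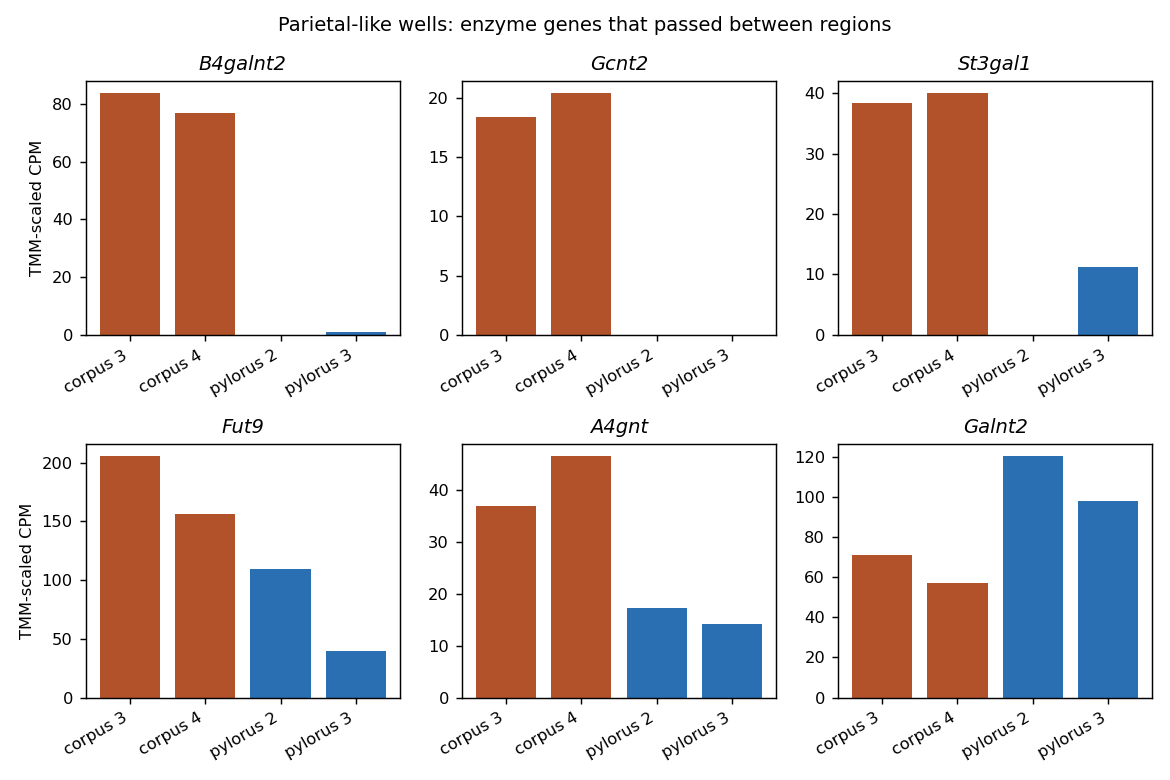
Levels (TMM-scaled CPM, axes from 0) in parietal-like cells of the 2 corpus and 2 pylorus plates, 1 bar per plate, for the enzyme genes that passed between regions. The calls of B4galnt2 and Gcnt2, which passed the filter on low counts through corpus alone, carry no weight. B4galnt2, Gcnt2, St3gal1, Fut9 and A4gnt are lower in both pylorus plates, and Galnt2 is higher.

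Whether a region difference itself differed between classes was tested on the differences between classes within a plate. Between neck-like and pit-like cells 0 of 36 enzyme genes passed (background 0%), and A4gnt differed by -0.62 ± 0.23 (adjusted p = 0.964). Between parietal-like and neck-like cells 2 of 36 passed, where 2.51% of all genes did. St3gal1 differed by -3.33 ± 0.71 (adjusted p = 0.0148), and Galnt3 by 1.61 ± 0.32 (adjusted p = 0.00875). The call of Galnt3 was lost without corpus replicate 3 (adjusted p = 0.0651) or corpus replicate 4 (0.112), and that of St3gal1 with a pseudocount of 0.5 (0.0605). On the same 4 plates Galnt3 was at 7.50 and 18.2 CPM in parietal-like cells of corpus and pylorus, and at 110 and 77.5 CPM in neck-like cells. Between parietal-like and pit-like cells St3gal1 alone of 39 passed (-3.67 ± 0.62, adjusted p = 0.0125), where 0.808% of all genes did, and did not pass without corpus replicate 3 (adjusted p = 0.0716). B4galnt2 and Gcnt2 were too low in the other classes to be tested in this way.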

How the data were processed

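UMIs were counted per gene and well in 4 corpus and 3 pylorus plates of mouse gastric epithelium. The deposited tables hold whole-number UMI counts, per the file headers and the values, and were used as the authors deposited them. Their layout, tabs under a comma-separated name, kept them from the unit check that count models need, so limma on log2 values replaced such a model. Per the submitters' processing notes, reads were placed on build mm9. Which aligner and counter were used is not stated in the labels or headers. Gene names were used as deposited, without coordinates.

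Wells with at least 1000 UMIs without spike-in RNAs were kept. Doublets were not called, each well having been filled by a sorter. Plates held 2646492 to 9511078 UMIs. Clustering used log values after scaling each well to 10000 UMIs, without the enzyme genes in scanpy 1.11.5 (2000 variable genes, 30 components, 15 neighbours, Leiden resolution 1.0, igraph 0.11.9). A cluster was named from at least 3 detected markers (in over 25% of wells) with a mean log2 fold of at least 0.5. The unnamed cluster was kept as a group of its own after the data were seen.

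Sums per plate and class (at least 10 wells) were TMM-scaled (trims of 30% and 5%), filtered (10 counts at the median library size, 15 in total) and fitted as log2(CPM + 2) with limma 3.58.1 (trend, R 4.3.3). The threshold was an adjusted p (Benjamini-Hochberg over all genes tested) of 0.05. Differences are on the log2(CPM + 2) scale and understate the change of low genes. UMI counts near the 3′ end are not compared between genes. The fits were tested on simulated data. Alternatives were a pseudocount of 0.5, no TMM, no low-count filter, voom weights, a replicate block, each plate left out, a subset of 4 plates alone, thinning, a minimum of 3000 UMIs, resolution 0.6, and enzyme genes kept in the clustering.

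The genes and lists were chosen with earlier results of these data known. Named were all genes passing between regions, up to 6 genes a class that were highest there with at least 32 CPM, genes without overlap between regions at that level, and 14 genes named always. A few others were named after their values were seen, to fill out a role: B3gnt7, Chst3 and Gcnt2 in the unnamed cluster. Intervals and floors (3 counts) cover counting error only.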

Additional observations from a re-analysis of the deposited data

Results flagged for a closer look

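Chst4 over all cells was 41.8 CPM in corpus replicate 1, far from the other 3 corpus plates, which lay at 1.72 CPM or below. Of 14 groups of plates looked at for a plate lying apart, this was the 1 found, and chance gives about 1 in 20 groups. The same plate held the Gast UMIs.

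Galnt3 was higher in pylorus in parietal-like cells and lower in pylorus in neck-like cells, and these region differences lay 1.61 apart on the log2 scale. That of St3gal1 differed by -3.33 between parietal-like and neck-like cells and by -3.67 between parietal-like and pit-like cells. All 3 passed a test of the difference itself, on 2 corpus and 2 pylorus plates.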

How the results depend on the processing

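With 2 parietal-like and 2 tuft-like sums on the smaller side, single plates carried weight. Leaving out plates in turn gave 2 to 11 passing enzyme genes between regions in parietal-like cells, 2 to 10 higher in tuft-like and 9 to 14 higher in immune-like cells, 1 to 9 for the parietal-neck and 0 to 8 for the parietal-pit region difference. It gave 8 to 10 in chief-like, 19 to 21 in neck-like, 19 to 21 in pit-like, 4 to 7 in parietal-like, 11 to 16 in proliferating-like and 17 to 19 in unnamed cells, and 0 in every other region comparison. The subset of 4 plates gave 5 passing genes over all cells, 4 in pit-like and 1 each in neck-like, chief-like and proliferating-like cells, where all plates gave 0, and the cause was not tested. Without TMM scaling 1 gene was higher in chief-like cells, and voom weights gave 23 higher in immune-like cells. With a pseudocount of 0.5, 1 gene passed for the parietal-neck and 0 for the parietal-pit difference. Of the alternatives for single genes, 635 kept their side of the threshold, 23 lost and 6 gained a call. No gene reversed direction where it passed in either run. Genes that passed in neither run could change sign, as Gcnt3 over all cells did with plates left out (-0.0763 to 0.368).

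Same-numbered plates paired only in part: their deviations correlated at 0.452, -0.108 and 0.468. Across regions, the plates numbered 1 were most like each other, as were those numbered 3, but not those numbered 2. The main fits used no block. With the replicate block, 0 enzyme genes passed over all cells and in neck-like, pit-like, chief-like, proliferating-like and unnamed cells, and A4gnt in neck-like cells was at -0.98 (adjusted p = 0.0890). Parietal-like and immune-like cells share only 1 number between regions, so no block could be fitted. Restricting class sums to at least 80000 UMIs, or parietal-like wells to at least 10000 UMIs, both chosen after seeing the data, changed no count by more than 1.5 times.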
